A study of Mus musculus with 2 samples.

Results

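Barcodes rich in the transcripts of secondary granules were chosen from 2 scRNA-seq libraries of the mouse temporomandibular joint (TMJ). A barcode is the tag of 1 droplet, and UMIs are the molecules counted in it. Of 13555 barcodes, 10109 had at least 500 genes and under 10% mitochondrial UMIs. A kept barcode was taken when Ngp, Camp and Ltf together held at least 1% of its UMIs, S100a8 and S100a9 at least 0.5%, and the gland genes Bpifa1, Bpifb1 and Lipf under 1%. These conditions gave 610 barcodes, called granule-rich barcodes here, of which 156 came from the WT library and 454 from the Prox1 mutant library. The levels of the genes in these conditions chose the barcodes, so they are given as a description.

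Both libraries were made from TMJ tissue of C57BL/6 mice aged 8 to 10 weeks treated with CFA (complete Freund's adjuvant), given into the joint, an agent that inflames the joint. The genotypes were WT and Prox1 mutant, which the study gives as heterozygous Prox1+/− females compared with WT females. Prox1 is the homeobox factor that lymphatic endothelial cells depend on, and the study used the heterozygotes as mice with weakened lymphatics. The Prox1 allele is described without restriction to a cell type, and the WT and Prox1+/− mice as coming from different sources. How many mice were pooled, whether they were littermates and how long after CFA the tissue was taken are not stated in the sources used here. There was 1 library per genotype, without an uninjected library, so no difference between genotypes has a replicate check, no p-value was computed, and genotype cannot be told apart from library. All intervals are 95% and cover counting error only.

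Neutrophils are made in the bone marrow from granulocyte-monocyte progenitors, and they fill their granules in a fixed order. Progenitors and promyelocytes make the primary granule proteases and myeloperoxidase, myelocytes and metamyelocytes make the secondary granule proteins such as lactoferrin and the cathelicidin precursor, and band and segmented cells make gelatinase granules and then surface receptors. Each protein is stored in the granule formed while its gene is active, and the transcripts largely disappear again before the cell enters the blood. Transcripts of Ngp, Camp and Ltf therefore mark cells of the middle of the series, which normally reside in marrow, and division stops as this stage is passed.

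The 3 granule genes of the rule and Mmp8 all lie on mouse chromosome 9, and the bases just before their starts are shown because the choice of barcodes turned on these transcripts. The sequences are from RefSeq on GRCm38.p6, read 5′ to 3′ on the strand of the gene. Only bases outside the GENCODE M21 gene model are printed, which leaves 189 bases for Ngp (chr9:110419558-110419746, plus strand), 89 for Camp (chr9:109849618-109849706, minus strand), 229 for Ltf (chr9:111019042-111019270, plus strand) and 250 for Mmp8 (chr9:7558179-7558428, plus strand). Capitals mark matches to TTGCNNAA or TTNNGCAA, the pattern of a C/EBP site searched on both strands.
Ngp: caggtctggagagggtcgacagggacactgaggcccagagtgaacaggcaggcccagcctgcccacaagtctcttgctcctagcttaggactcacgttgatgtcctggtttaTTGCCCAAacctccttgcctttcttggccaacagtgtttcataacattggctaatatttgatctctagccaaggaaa
Camp: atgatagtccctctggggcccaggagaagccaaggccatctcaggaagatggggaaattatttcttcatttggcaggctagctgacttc
Ltf: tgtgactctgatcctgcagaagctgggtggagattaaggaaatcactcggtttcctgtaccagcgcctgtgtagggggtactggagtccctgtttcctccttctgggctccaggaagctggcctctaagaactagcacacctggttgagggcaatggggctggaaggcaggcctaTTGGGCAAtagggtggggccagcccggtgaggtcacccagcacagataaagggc
Mmp8: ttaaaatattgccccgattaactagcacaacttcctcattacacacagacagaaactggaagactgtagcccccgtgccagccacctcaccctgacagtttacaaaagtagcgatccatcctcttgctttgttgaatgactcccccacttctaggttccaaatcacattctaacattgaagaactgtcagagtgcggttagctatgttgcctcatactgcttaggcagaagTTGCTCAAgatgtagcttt
In the full 250 bases before each RefSeq start, Ngp held 2 matches, 138 and 11 bases before the start, and the nearer one lies in the bases not printed. Ltf held 1 match at 75 bases, Mmp8 held 1 at 19 bases, and Lcn2, another secondary granule gene, held 1 at 216 bases. Camp held none in its window. The pattern occurred in 3142 of 32851 promoters of the same length (9.56%), and a match is a description of the letters alone.

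Of the markers of immature neutrophils, Ngp, Camp, Ltf and S100a8 are genes of the rule and so give no check of the label. Mmp8, the only marker outside the rule, was lower in these barcodes than in mature neutrophils of the same library, as given below with its values, so the barcodes are called by the rule. In the WT library the granule share of a barcode (Ngp, Camp and Ltf together) was 1.14% at the lowest, 7.90% at the median and 17.6% at the highest. In the mutant library it was 1.0% at the lowest, 3.01% at the median and 14.2% at the highest. A share under 3% was found in 22 of 156 WT barcodes and in 226 of 454 mutant barcodes. S100a8 and S100a9, the subunits of calprotectin, together held a median of 20.9% of UMIs in WT and 9.29% in the mutant.

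Haemoglobin transcripts divided the mutant barcodes. In 224 of the 454 mutant barcodes haemoglobin genes held 1% or more of the UMIs, with a median of 19.8% and a maximum of 58.9%, against 2 of 156 in WT. The 224 were shallower, with a median of 3020 UMIs and 1294 genes, against 11567.5 UMIs in the 230 mutant barcodes under 1% haemoglobin and 12980 in the 154 such WT barcodes. Their granule share was 2.0% at the median, compared with 5.09% in the mutant barcodes under 1%. For these 224 barcodes the name of immature neutrophil is uncertain. It is also uncertain for shallow barcodes under 1% haemoglobin with little S100a8 and S100a9. Under 1% haemoglobin the lowest share of these 2 genes was 0.575% in WT and 0.578% in the mutant, against medians of 21.0% and 23.3%. The counts over all genes are given with and without haemoglobin-rich barcodes, as are the lists where a count or median moved.

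**Figure D1:**
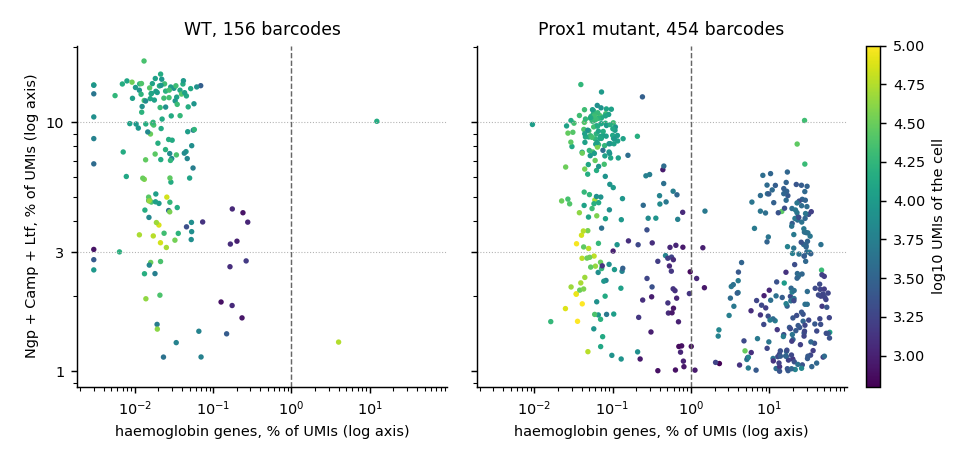
Share of UMIs in haemoglobin genes (x axis, percent, log scale, values of 0 drawn at the lower edge) against the share in Ngp, Camp and Ltf (y axis, percent, log scale) for each granule-rich barcode of the WT and the mutant library, coloured by log10 of its UMIs. The dashed line marks 1% haemoglobin and the dotted lines mark granule shares of 3% and 10%. Of the WT points 2 lie right of the dashed line, and of the mutant points 224 do, most of them below a granule share of 3%.

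The haemoglobin-rich mutant barcodes held erythroid transcripts beside the granule transcripts by which they were chosen. Alas2, the enzyme that begins haem synthesis in erythroid cells, stood at 410 counts per 1000000 UMIs (CPM) and had a UMI in 132 of 224 barcodes, against 2.4 CPM in the mutant barcodes under 1% haemoglobin. Slc4a1, the anion exchanger of the red cell membrane, stood at 177 CPM with a UMI in 76 of them, again against 2.4 CPM. In the same barcodes Camp had a UMI in 224 of 224 and Ltf in 222. Camp, Ltf, Ngp and S100a8 are genes of the rule, so their presence follows from the choice of barcodes and is a description. Ngp stood at 12588 CPM there, Camp at 15106 CPM and S100a8 at 38357 CPM, all below the mutant barcodes under 1% haemoglobin, where they stood at 23585, 23660 and 81679 CPM.

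The limit of 1% fell in a crowded range of the mutant library. There were 55 mutant barcodes with a granule share from 1% to 1.25% and 67 from 0.75% to 1%, with median haemoglobin shares of 13.4% and 12.6% and medians of 2263 and 2248 UMIs. In WT there were 2 and 7. The 5 WT barcodes just inside the limit had granule shares of 1.14% to 1.41% and the 5 just outside 0.787% to 0.858%, whereas in the mutant the 5 just inside had 1.0% to 1.01% and the 5 just outside 0.979% to 0.996%. The other limits removed almost nothing, with 1 barcode per library failing the S100 condition alone and 0 failing the gland condition alone.

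Free RNA in the suspension gives all droplets some counts of abundant genes. In droplets with at least 5 UMIs of endothelial markers, which should not make granule proteins, the 3 granule genes held 0.0169% of summed UMIs in WT (1345 droplets, median 4588 UMIs) and 0.0196% in the mutant (926 droplets, median 5773 UMIs). In kept droplets with at least 20% haemoglobin that were not granule-rich, they held 0.00642% in WT and 0.0625% in the mutant. Both kinds of droplet were chosen without the granule-rich ones, and the endothelial ones also without mature neutrophils, which keeps these shares low. The part of free RNA in the granule-rich barcodes was not tested.

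Transcripts of other cell types were present in part of the barcodes. At least 3 UMIs of the macrophage complement genes C1qa, C1qb and C1qc were counted in 18 of the WT barcodes and in 109 of the mutant barcodes (24%), with 32.1% among the mutant barcodes at or over 1% haemoglobin and 16.1% among those under it. Scrublet called 22 of the 156 WT and 22 of the 454 mutant barcodes doublets. Of all barcodes scored it called 239 of 5469 in WT and 462 of 7603 in the mutant. Calls were thus more frequent among the granule-rich barcodes than in the whole library in WT, and less frequent in the mutant. The 2 libraries shared 10 barcode sequences, and 1 of them was granule-rich in both. Results are therefore also given for the 136 WT and 193 mutant barcodes with under 1% haemoglobin and under 3 C1q UMIs, called the strict barcodes below, although every such choice also removes depth. The strict barcodes still include shallow ones with little S100a8 and S100a9. Their lowest values were 791 UMIs and a share of 0.575% in WT, and 716 UMIs and 0.578% in the mutant. The part of such barcodes in the shares below was not tested.

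Granule-rich barcodes were 3.58% of the kept WT barcodes (156 of 4352, Clopper-Pearson interval 3.05% to 4.18%) and 7.89% of the kept mutant barcodes (454 of 5757, 7.2% to 8.61%). The difference was 4.30 percentage points (Newcombe interval 3.41 to 5.19). When haemoglobin-rich barcodes were left out of the numerator alone, the shares were 3.54% and 4.00% of all kept barcodes, a difference of 0.457 points with an interval from -0.302 to 1.20 that includes 0. The strict barcodes made up 3.13% and 3.35%, a difference of 0.227 points (-0.481 to 0.916).

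The denominator mattered as well, since 2676 of the kept mutant barcodes (46.5%) and 339 of the kept WT barcodes (7.79%) held 1% haemoglobin or more. Among kept barcodes under 1% haemoglobin, 154 of 4013 WT barcodes (3.84%) and 230 of 3081 mutant barcodes (7.47%) were granule-rich, a difference of 3.63 points (2.54 to 4.75). The strict barcodes were 3.39% and 6.26% of the same denominator, a difference of 2.88 points (1.87 to 3.92). The mutant value was the higher one with either denominator, but the difference ran from under 1 point, with an interval that includes 0, to over 3.

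**Figure D2:**
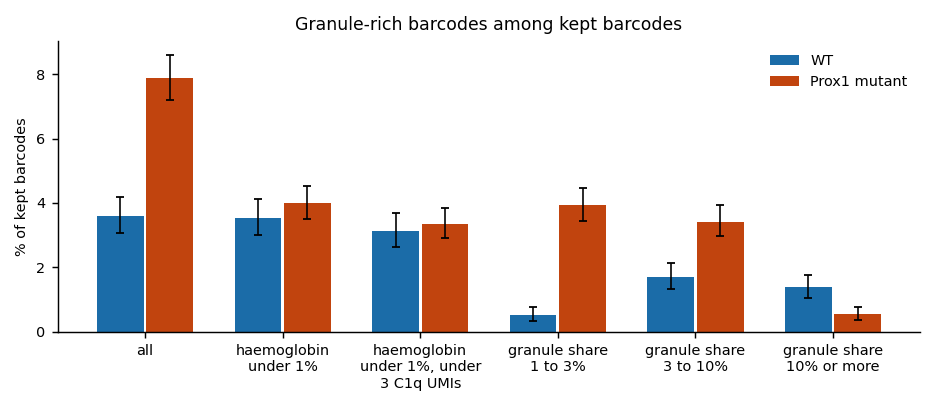
Granule-rich barcodes as a percent of kept barcodes (y axis) in the WT and the mutant library, for all of them, for those under 1% haemoglobin, for those also under 3 C1q UMIs and for 3 ranges of granule share, with Clopper-Pearson intervals. The mutant value is 7.89% against 3.58% in WT when all are counted, and the intervals of the libraries overlap when haemoglobin-rich barcodes are left out of the numerator. At a granule share of 10% or more the WT value is the higher one.

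The libraries differed in opposite directions at low and high granule shares. A share of 10% or more was reached by 60 WT barcodes (1.38% of those kept) and 31 mutant barcodes (0.538%), a difference of -0.840 points (-1.26 to -0.460). From 3% to under 10% there were 74 in WT (1.70%) and 197 in the mutant (3.42%), a difference of 1.72 points (1.11 to 2.33). Under 3% there were 22 in WT (0.506%) and 226 in the mutant (3.93%), a difference of 3.42 points (2.88 to 3.98). Of those 226 mutant barcodes, 153 held 1% haemoglobin or more, so the lowest range is also the one richest in red cell transcripts, and the part of haemoglobin in the difference was not tested. Among kept barcodes under 1% haemoglobin, the shares in WT and in the mutant were 1.47% and 0.974% in the highest range, 1.84% and 4.12% in the middle range, and 0.523% and 2.37% in the lowest.

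Among the rule genes, Ngp, a cathelicidin-like protein of neutrophil granules, stood at 29637 CPM in WT and 21614 in the mutant, where CPM is taken over all UMIs of the granule-rich barcodes of a library. Camp, the cathelicidin precursor, stood at 40743 CPM and 22127 CPM. Ltf, which encodes lactoferrin, an iron-binding protein, stood at 7184 CPM and 6949 CPM. Camp was thus the most abundant of the 3 in WT, whereas Ngp and Camp were nearly level in the mutant. As shares of the 3 genes' UMIs, Ngp, Camp and Ltf were 38.2%, 52.5% and 9.26% in WT and 42.6%, 43.7% and 13.7% in the mutant, and leaving out the haemoglobin-rich mutant barcodes gave 42.9%, 43.0% and 14.1%.

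Single barcodes spread widely around these sums. Ngp held 0.117% of UMIs at the lowest, 3.13% at the median and 6.86% at the highest in WT, and 0%, 1.17% and 6.11% in the mutant. Ltf held 0%, 0.884% and 2.99% in WT and 0%, 0.407% and 2.62% in the mutant. The ranges of the libraries overlap over nearly their whole width for both genes. S100a8 stood at 77414 CPM in WT and 73914 in the mutant, and S100a9 at 89280 and 89548 CPM.

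Across the ranges of granule share, the other genes followed an order. For this the barcodes under 1% haemoglobin were split at 3% and 10%, and CPM was taken over UMIs without the rule and haemoglobin genes, so that the abundance of the rule genes does not push the others down. The ranges cut a continuous share and are no cell types, and they held 21, 74 and 59 barcodes in WT and 73, 127 and 30 in the mutant. The secondary granule genes that the rule did not use summed to 10126, 20316 and 57765 CPM from the lowest to the highest range in WT, and to 9277, 26510 and 51380 CPM in the mutant. Lcn2, which encodes the siderophore-binding lipocalin of these granules, stood at 4945, 9646 and 29465 CPM in WT and at 4341, 13371 and 24965 CPM in the mutant.

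Cell division genes were higher in the higher ranges. The 15 G2/M genes summed to 1278, 1629 and 3566 CPM in WT and to 447, 2064 and 4928 CPM in the mutant. Mki67, the proliferation antigen, stood at 207, 332 and 559 CPM in the WT ranges. The nuclear and chromatin genes went the same way, from 4950 to 13596 CPM in WT and from 3334 to 13316 CPM in the mutant, and so did the NADPH oxidase subunits, from 5094 to 10054 CPM and from 5992 to 10155 CPM. Cebpe, the C/EBP factor required for secondary granule genes, stood at 178, 270 and 857 CPM in WT and at 95.7, 387 and 922 CPM in the mutant.

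Elane and Mpo of the earliest stage, genes of later stages and genes of inflammation were lowest in the highest range. Elane, neutrophil elastase, stood at 4159, 1187 and 806 CPM in WT and at 396, 265 and 36.0 CPM in the mutant. Mpo, myeloperoxidase, stood at 762, 303 and 61.7 CPM in WT and at 108, 34.9 and 14.4 CPM in the mutant, the last from 4 UMIs. Both were highest in the lowest range of each library, where few barcodes held 1% or more of their UMIs in Mpo, Elane and Prtn3. In WT 2 of 21 did, at 5.26% of 15026 and 3.93% of 23866 UMIs. In the mutant 1 of 73 did, at 2.63% of 23775 UMIs. Not all genes of the primary granule list went this way. Serpinb1a stood at 468, 574 and 1618 CPM in WT and at 252, 730 and 1094 CPM in the mutant. Ms4a3 stood at 347, 127 and 189 CPM and at 24.6, 53.8 and 68.4 CPM. The tertiary granule genes summed to 15226, 6704 and 3252 CPM in WT and to 7800, 7023 and 2556 CPM in the mutant, with Retnlg the largest part in the lowest WT range. Mmp8, the neutrophil collagenase and one of the label's markers, stood at 1520, 997 and 275 CPM in WT and at 1598, 1772 and 331 CPM in the mutant. The marker Mmp8 was therefore lowest in both libraries where Ngp, Camp and Ltf were highest. Retnlg, a resistin-like secreted protein of mature neutrophils, stood at 11520, 3568 and 1151 CPM in WT and at 3626, 2511 and 468 CPM in the mutant.

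Cytokine and feedback genes summed to 7478, 8006 and 1940 CPM in WT and to 7694, 5664 and 1246 CPM in the mutant, and interferon response genes to 2292, 2337 and 969 CPM and to 2077, 2148 and 878 CPM. In both lists and both libraries the level was lowest in the highest range. Il1b, the inflammatory cytokine, stood at 1910, 1460 and 266 CPM in WT and at 1595, 950 and 25.2 CPM in the mutant. Macrophage markers also went down over the ranges, from 2185 to 36.3 CPM in WT and from 1987 to 28.8 CPM in the mutant, and their part in the cytokine values was not tested.

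**Figure D3:**
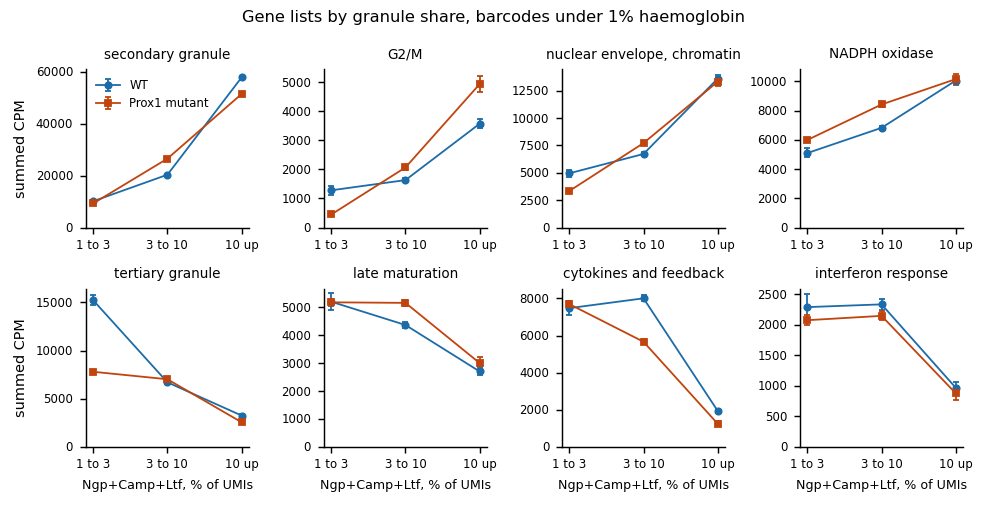
Summed CPM (y axis, linear from 0, over UMIs without the rule and haemoglobin genes, with Poisson intervals) of 8 gene lists in barcodes under 1% haemoglobin whose granule share was 1% to 3%, 3% to 10% and 10% or more (x axis), for the WT and the mutant library. Secondary granule, G2/M, nuclear and NADPH oxidase genes are higher to the right, and tertiary granule, late maturation, cytokine and interferon genes are lower in the highest range.

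The barcodes were next set between their neighbours in the granulocyte series. Mature neutrophils were kept barcodes with S100a8 and S100a9 at 2% or more of UMIs and the 3 granule genes under 1%. They also had at least 3 UMIs over Csf3r, Cxcr2, Retnlg and Il1r2, and under 3 C1q UMIs. This gave 105 in WT and 171 in the mutant, of which 1 and 49 held 1% haemoglobin or more. Progenitors were kept barcodes with Mpo, Elane and Prtn3 at 1% or more and the granule genes under 1%, which gave only 15 in WT and 25 in the mutant, of which 15 mutant ones held 1% haemoglobin or more. The ratio was taken within each library, and a gene was called when it differed at least 2-fold the same way in both. Barcodes chosen by expression and then compared by expression give no test, so these are sizes alone, and genes of either rule are left out of the counts.

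Against mature neutrophils, 447 of 7246 genes (6.17%) were at least 2-fold higher in the granule-rich barcodes of both libraries and 453 (6.25%) at least 2-fold lower. The median log2 ratio over all genes was 0.08 in each library. Among barcodes under 1% haemoglobin the counts were 520 (7.73%) and 469 (6.97%) of 6731. Removing doublets gave 770 higher genes, the scaling without the rule, haemoglobin and mitochondrial genes 694, and a limit of 5% for S100a8 and S100a9 in mature neutrophils 1033. The libraries alone gave 1217 higher and 1082 lower genes in WT, and 637 and 534 in the mutant.

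Of the 9 measured genes of the primary granule list, 7 were higher than in mature neutrophils in both libraries. The median log2 ratio of the list was 4.29 in WT and 2.52 in the mutant. The list also holds Serpinb1a and the progenitor marker Ms4a3, so it is not one of granule proteins alone. Among barcodes under 1% haemoglobin the same 7 were higher, with medians of 4.29 and 3.35. In both libraries a few barcodes held most of the Mpo, Elane and Prtn3 UMIs: without the 7 WT and 6 mutant barcodes with 1% or more of their UMIs in these genes, their summed level went from 2034 to 345 CPM in WT and from 417 to 152 CPM in the mutant. Serpinb1a, an inhibitor of the neutrophil serine proteases, stood at 637 CPM in WT and 398 in the mutant, against 30.9 and 43.7 CPM in mature neutrophils. Of the 8 secondary granule genes outside the rule, 5 were higher (Lcn2, Cd177, Olfm4, Chil3 and Fcnb), with medians of 2.04 and 1.58. Fcnb, which encodes a ficolin, had log2 ratios of 5.73 and 6.93, and Chil3, a chitinase-like protein, of 3.53 and 4.00.

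Later genes were lower. Of the 9 late maturation genes, 8 were lower than in mature neutrophils in both libraries, with medians of -1.87 and -1.53. Trem1, a receptor that amplifies inflammatory signals, stood at 174 CPM in WT and 173 in the mutant, against 805 and 660 CPM in mature neutrophils. Of the 7 tertiary granule genes, only Adam8, a surface metalloprotease, was called, with log2 ratios of -1.24 and -1.06. The marker Mmp8 stood at 636 CPM in WT and 1046 in the mutant, and in mature neutrophils at 1304 and 1769 CPM, so it did not set the granule-rich barcodes above mature neutrophils.

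Division genes were higher than in mature neutrophils. All 11 DNA replication genes measured were higher, with medians of 3.68 in WT and 1.79 in the mutant, or 3.54 and 2.29 under 1% haemoglobin. Of the 15 G2/M genes, 11 were higher in both libraries, and all 15 among barcodes under 1% haemoglobin. Top2a, the topoisomerase that untangles chromosomes, stood at 301 CPM in WT and 325 in the mutant, against 24.7 and 122 CPM in mature neutrophils. These levels include the haemoglobin-rich barcodes of both kinds of cell. Among 7 cell cycle exit genes, the antiproliferative factors Btg1 and Btg2 were lower, with log2 ratios for Btg1 of -1.62 and -1.43. Under 1% haemoglobin Cdkn2c, a cyclin-dependent kinase inhibitor, was also called higher.

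Among 10 granulopoiesis factors, Cebpe and Myb were higher and Cebpb was lower. Cebpe stood at 314 CPM in WT and 220 in the mutant, against 9.27 and 16.6 CPM in mature neutrophils. Cebpb, the factor of emergency granulopoiesis, stood at 735 and 491 CPM against 2657 and 1264 CPM. Of the 6 NADPH oxidase subunits, Cybb alone was called, at 1960 and 2253 CPM against 607 and 938 CPM in mature neutrophils.

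Inflammatory genes were lower than in mature neutrophils. Of 14 cytokine and feedback genes 9 were lower, with medians of -1.62 and -1.36, and of 12 interferon response genes 7 were lower, with medians of -1.90 and -1.43. No gene of either list was called higher. Il1b stood at 908 CPM in WT and 819 in the mutant, against 6537 and 5009 CPM. Isg15, a ubiquitin-like protein made under interferon, stood at 127 and 144 CPM against 806 and 529 CPM.

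The largest ratios over mature neutrophils, ranked by the smaller of the libraries' ratios, belonged to Fcnb, Ica1, Cpa6, Orm1, F730016J06Rik, Tmem216, Elane, Ms4a3, Cebpe and Prom1. Ica1, which encodes a membrane trafficking protein, had a log2 ratio of 4.31 in each library, at 153 CPM in WT and 180 in the mutant against 7.72 and 9.05 CPM. The acute phase protein gene Orm1 stood at 152 and 108 CPM against 4.64 and 6.79 CPM, the WT value in mature neutrophils being at the floor of 3 UMIs. At the other end were Lypd6b, Cstdc4, Abi3bp, H2-Q10, Ifitm1, Aqp9, Sycp2, Cd101, Mpzl3 and Jaml. Cd101, an inhibitory surface glycoprotein used to mark mature neutrophils, stood at 11 and 14.5 CPM against 110 and 122 CPM. Cstdc4 and H2-Q10 have near-identical copies, so their counts are uncertain.

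Against progenitors, 1016 of 6976 genes (14.6%) were at least 2-fold higher in both libraries and 1232 (17.7%) at least 2-fold lower, with median log2 ratios over all genes of -0.13 in WT and -0.09 in the mutant. Among barcodes under 1% haemoglobin they were 946 (14.6%) and 1153 (17.8%) of 6478. The same scaling gave 770 lower genes. With 15 and 25 progenitor barcodes, single barcodes weigh heavily on these ratios.

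Of the 6 genes of the primary granule list outside the progenitor rule, 3 were lower (Ctsg, Prss57 and Ms4a3). Ctsg, which encodes cathepsin G, stood at 105 CPM in WT and 14.1 in the mutant, against 3897 and 2522 CPM in progenitors. All 9 nucleolar genes were lower, with medians of -2.95 and -3.18. Npm1, the nucleolar phosphoprotein that serves ribosome assembly, stood at 185 and 138 CPM against 1761 and 1253 CPM. The nucleolar list was not called in the comparison with mature neutrophils, where 0 of its 7 measured genes passed either limit.

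Granule and effector genes were higher than in progenitors. Of the 8 secondary granule genes 7 were higher, of the 8 tertiary granule genes all were, and of the 12 late maturation genes 10 were. Lcn2 stood at 10950 CPM in WT and 7543 in the mutant, against 28.1 and 42.6 CPM in progenitors. Mmp8 had log2 ratios of 5.64 and 6.73, and Cd177, a neutrophil surface glycoprotein, of 6.59 and 6.11. Of the 6 NADPH oxidase subunits 4 were higher, and so were 9 of 13 cytokine and feedback genes and 7 of 11 interferon response genes. Under 1% haemoglobin 8 of 10 interferon response genes were higher, Ifit2 being the gene added, and the median log2 ratio in the mutant was 2.95 in place of 1.98 for the cytokine and feedback genes and 3.58 in place of 2.8 for the late maturation genes.

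The lists of division genes differed in their distance from progenitors. Of the 15 G2/M genes 0 were called in either direction, with medians of -0.29 and -0.21, while 4 of 12 DNA replication genes were lower, with medians of -0.88 and -1.46. Under 1% haemoglobin 7 of 11 DNA replication genes were lower, with medians of -1.07 and -1.58, and still 0 of 15 G2/M genes were called. Top2a stood at 301 CPM in WT and 325 in the mutant, against 447 and 315 CPM in progenitors. Among the 7 cell cycle exit genes measured, Cdkn2d, Btg1 and Btg2 were higher than in progenitors. Of the 10 granulopoiesis factors, Cebpe alone was higher, and 2 were lower, Irf8, a factor that favours monocytes, and Myb. These counts are near the shares over all genes, 14.6% higher and 17.7% lower, and set the factors apart in neither direction.

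**Figure D4:**
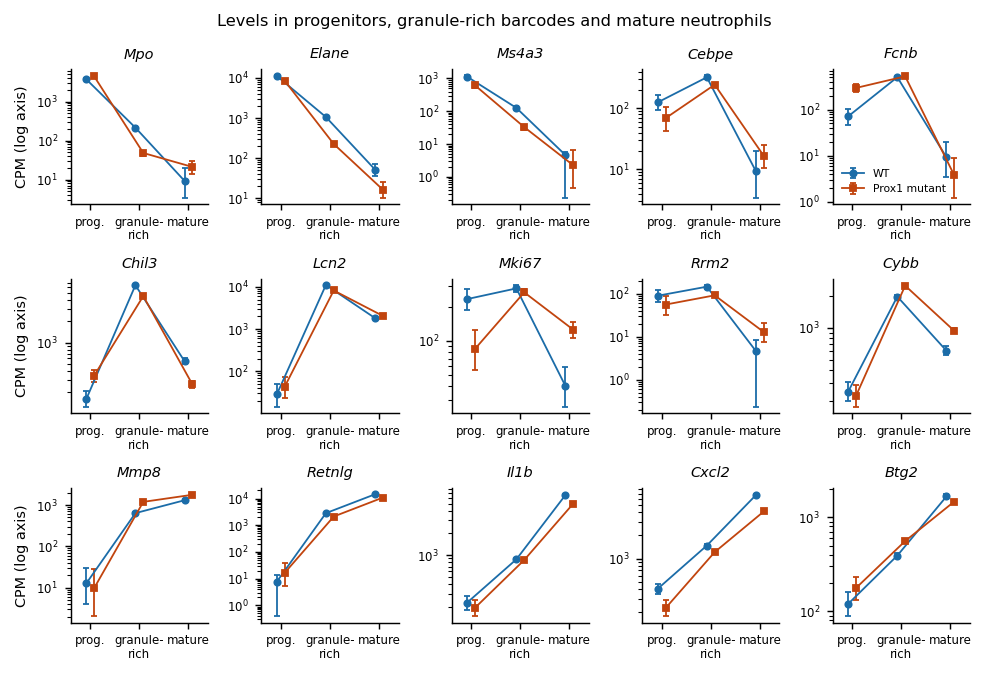
CPM (y axis, log scale) of 15 genes in progenitors, in granule-rich barcodes under 1% haemoglobin and in mature neutrophils of the WT and the mutant library, with Poisson intervals and values of 0 drawn at the floor of 3 UMIs. The haemoglobin limit was applied to the granule-rich barcodes alone. In the mutant, 15 of 25 progenitors and 49 of 171 mature neutrophils held 1% haemoglobin or more. Mpo, Elane and Ms4a3 are highest in progenitors, Lcn2, Chil3, Fcnb and Cebpe in the granule-rich barcodes, and Mmp8, Retnlg, Il1b, Cxcl2 and Btg2 in mature neutrophils. Mpo and Elane are genes of the progenitor rule and Retnlg of the mature neutrophil rule, so the choice of barcodes set where these are highest.

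The share of barcodes with a UMI of a G2/M gene was compared at equal depth, after each barcode was thinned at random to 2000 UMIs and shallower ones (12 in WT, 97 in the mutant) were left out. It was 47.2% in WT (68 of 144, 38.9% to 55.7%) and 54.9% in the mutant (196 of 357, 49.6% to 60.1%), a difference of 7.68 points (-1.96 to 17.1). Without thinning the shares were 59.0% and 68.5%. Without the haemoglobin-rich barcodes it was 46.5% in WT (66 of 142) and 39.3% in the mutant (75 of 191), a difference of -7.21 points (-17.8 to 3.47). Thinned to 1000 UMIs these barcodes gave 40.3% and 37.0%, and thinned to 4000 UMIs 49.3% and 49.5%, so the direction among them depended on the depth. The intervals are over barcodes of 1 library each and cover counting error alone. The mutant barcodes at or over 1% haemoglobin stood at 72.9% (121 of 166). Mature neutrophils stood at 8.25% (8 of 97) and 24.5% (38 of 155), and progenitors at 76.9% (10 of 13) and 78.3% (18 of 23). Haemoglobin-rich barcodes were not left out of the mature neutrophils and progenitors, and their part in these shares was not tested.

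Between the libraries, UMIs were summed over the granule-rich barcodes, 2538277 in WT and 4612285 in the mutant, and genes with at least 100 UMIs were compared. At least 2-fold higher in the mutant were 282 of 6523 genes (4.32%), and at least 2-fold lower were 74 (1.13%), with a median log2 ratio of 0.11 over all genes. Among barcodes under 1% haemoglobin, 256 of 6046 genes (4.23%) were higher and 99 (1.64%) lower. With doublets removed 683 genes were higher. Higher genes were 79.2% of the calls in the first case and 72.1% in the second, and 67.5% when the scaling also left out the rule, haemoglobin and mitochondrial genes (233 higher, 112 lower). Of the 282 higher genes, 108 reached 100 UMIs in the strict barcodes, where 62 were called again and 7 had the opposite direction. Of the 74 lower genes, 52 reached 100 UMIs there, 44 were called again and 0 had the opposite direction.

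Among the lists by function, the primary granule list had the most calls. Of its 9 measured genes, 6 were lower in the mutant and 0 higher, with a median log2 ratio of -2.01. The same 6 of 9 were lower among barcodes under 1% haemoglobin (-1.95). Mpo, myeloperoxidase, stood at 208 CPM in WT and 49.0 in the mutant (log2 -2.09, -2.32 to -1.86). Elane, neutrophil elastase (chr10:79886247-79888215), stood at 1031 and 230 CPM (log2 -2.16). Prtn3, proteinase 3, stood at 795 and 138 CPM (log2 -2.52), and in the strict barcodes its log2 ratio was -2.32. With doublets removed the log2 ratios were -1.80 for Mpo, -2.38 for Elane and -2.64 for Prtn3.

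Few barcodes carried these transcripts. The 10 barcodes with the most UMIs of Mpo, Elane and Prtn3 held 93.1% of the 5162 such UMIs in WT and 78.0% of the 1924 in the mutant, while 105 of 156 WT and 269 of 454 mutant barcodes held 0. Those of 1% or more of their UMIs in the 3 genes, the limit used for progenitors, numbered 7 in WT and 6 in the mutant. Without these 13 barcodes the summed level was 345 CPM in WT and 152 in the mutant, against 2034 and 417 CPM with them. Under 1% haemoglobin and without them it was 355 and 95.9 CPM. The barcodes left out here were chosen by the genes compared, so these levels are a description.

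The secondary granule genes were not called in either direction (0 of 8 in each), with a median log2 ratio of -0.35, and -0.20 under 1% haemoglobin. Lcn2 had a log2 ratio of -0.54 and Chil3 of -0.61, and among strict barcodes they stood at -0.29 and -0.40. Camp, a rule gene, stood at -0.88, -0.81 under 1% haemoglobin and -0.66 among strict barcodes. Ltf went from -0.05 to 0.09 and 0.25 under the same choices. Cebpe stood at -0.51 and -0.40 under 1% haemoglobin.

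Genes of the later stages gave 0 calls over all barcodes. The 12 late maturation genes had a median of 0.32 and the 8 tertiary granule genes of 0.33, against 0.11 over all genes tested. Under 1% haemoglobin the medians were 0.49 and 0.44, against 0.15 over all genes, and Slc11a1, a metal ion transporter, was the 1 tertiary granule gene called higher. Cxcr2, the receptor by which neutrophils follow CXC chemokines, had a log2 ratio of 0.47 (0.26 to 0.69), and 0.84 among strict barcodes. Mmp8 stood at 0.72 (0.64 to 0.80), at 0.90 under 1% haemoglobin and at 1.12 (1.02 to 1.21) among strict barcodes, and so passed 2-fold only there. With doublets removed it stood at 0.41. Mmp8 had a UMI in 73 of the WT and 208 of the mutant barcodes. Kept barcodes under 1% haemoglobin that were neither granule-rich nor mature neutrophils are called the remaining barcodes below. In them the CPM of Mmp8 was 33.7 and 46.1, without the mature neutrophils, whose higher level is given above.

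The other lists gave few calls. Mcm4 of 11 DNA replication genes and Ube2c of 15 G2/M genes were lower in the mutant, with medians of -0.49 and -0.63. Under 1% haemoglobin Ube2c was called again and Mcm4 was not, with medians of -0.47 and -0.48. Klf4 of 9 factors and Ptgs2 of 13 cytokine and feedback genes were higher. None of the 11 interferon response genes, 6 NADPH oxidase subunits, 7 cell cycle exit genes, 6 retention and egress genes or 8 nuclear genes was called. Of 7 nucleolar genes 0 were called, and 2 (Nop10 and Nhp2) were lower among barcodes under 1% haemoglobin.

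Some genes were higher in the mutant in all 3 choices of barcodes. Itgb2l, a beta integrin-like gene of neutrophils (chr16:96422288-96443619), had 88 UMIs in WT and 878 in the mutant, which is 34.7 and 190 CPM (log2 2.46, 2.14 to 2.79). Its log2 ratio was 2.64 under 1% haemoglobin and 2.93 (2.56 to 3.32) among strict barcodes, of which 49 of 136 in WT and 157 of 193 in the mutant had a UMI. With doublets removed it was 2.31. Thinned to 2000 UMIs, 14 of 142 WT and 69 of 191 mutant barcodes under 1% haemoglobin had one. Mature neutrophils showed the same direction, at 4.64 and 59.6 CPM, although the WT value is at the floor of 3 UMIs. The remaining barcodes, which hold no mature neutrophils and none at or over 1% haemoglobin, were at 0.31 and 2.36 CPM.

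Plekhg1, a gene for a guanine nucleotide exchange factor, had 18 UMIs in WT and 316 in the mutant (log2 3.27, 2.59 to 4.05), with 3.35 among strict barcodes. In the remaining barcodes it stood at 150 CPM in WT and 130 in the mutant, so the direction there was not the same (log2 -0.21). Klf4, a Kruppel-like factor active in monocytes and macrophages, stood at 57.1 and 135 CPM (log2 1.24), with 1.80 (1.19 to 2.48) among strict barcodes and 2.77 with doublets removed. Arg1, arginase 1, had log2 ratios of 2.65 and, among strict barcodes, 3.72, but there it was seen in 5 WT and 12 mutant barcodes, and 1 WT barcode held 62 of its 72 WT UMIs. Over all barcodes its log2 ratio was 5.80 with doublets removed and 5.08 without the barcode that held most of its UMIs.

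Other genes higher over all barcodes were not called higher among strict barcodes. Nos2, the inducible nitric oxide synthase, had a log2 ratio of 3.70 over all barcodes and 0.49 (-0.75 to 1.84) among strict barcodes. Gpnmb, a glycoprotein of lipid-laden and lysosome-rich macrophages, went from 3.09 to -2.43, and 1 mutant barcode held 289 of its 527 UMIs. Ptgs2, the inducible cyclooxygenase, went from 1.24 to -0.01 (-0.41 to 0.41). With doublets removed the log2 ratios were 3.62 for Nos2, 3.59 for Gpnmb and 1.23 for Ptgs2, and without the barcode that held most of its UMIs that of Gpnmb was 2.74. The macrophage markers summed to 654 CPM in WT and 1027 in the mutant over all barcodes, and to 29.2 and 45.2 CPM among strict barcodes, and their part in these ratios was not tested.

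**Figure D5:**
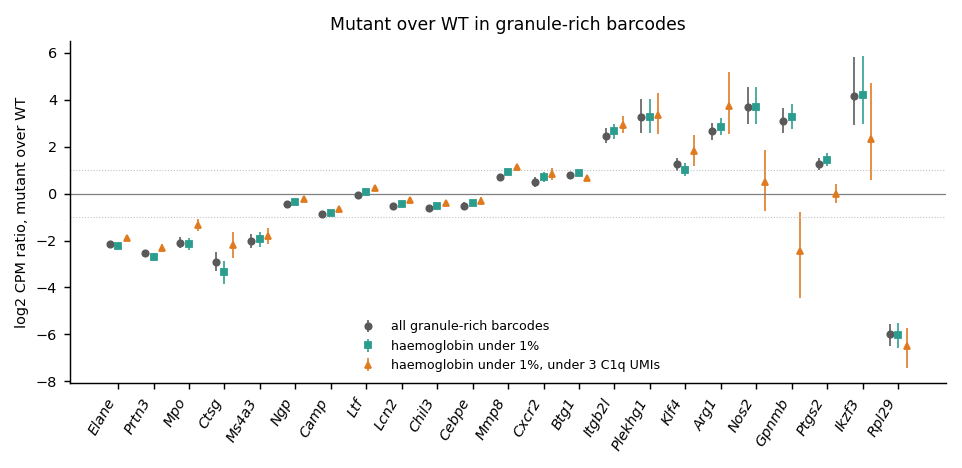
Log2 ratio of CPM, mutant over WT (y axis), for 23 genes (x axis) over all granule-rich barcodes, those under 1% haemoglobin, and those also under 3 C1q UMIs, with exact binomial intervals that cover counting error and dotted lines at 2-fold. Elane, Prtn3, Mpo, Ctsg and Ms4a3 at the left lie below -1 and Itgb2l and Plekhg1 lie above 1 in all 3 choices. Nos2, Gpnmb and Ptgs2 move to 0.49, -2.43 and -0.01 in the strictest one.

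The most extreme ratios were shared with other cells of the library. Rpl29, a ribosomal protein gene with many near-identical copies, had 1369 UMIs in WT and 39 in the mutant (539 and 8.46 CPM, log2 -6.00). In the remaining barcodes it stood at 593 and 15.5 CPM. Ifi202b, an interferon-inducible gene known to vary between inbred mouse strains and a member of a family of similar genes, had 0 UMIs in WT and 295 in the mutant. This is at least 54.1-fold higher when the WT library is set at the floor of 3 UMIs. The remaining barcodes held 0.02 CPM in WT and 124 in the mutant. Such ratios set whole libraries apart, and strain background, library and genotype cannot be told apart in them.

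Gland transcripts were a second difference of whole libraries. Dmbt1, a mucosal scavenger protein, had 0 UMIs in the WT barcodes and 168 in the mutant barcodes, at least 30.8-fold higher. It stood at 0.02 and 557 CPM in the remaining barcodes. The gland markers Bpifa1, Bpifb1, Lipf and Muc5b were all at 0 in the WT granule-rich barcodes and summed to 226 CPM in the mutant ones, or 81.4 CPM under 1% haemoglobin. The highest share of Bpifa1, Bpifb1 and Lipf in a mutant granule-rich barcode was 0.892%.

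Marker lists of other cell types were summed over the granule-rich barcodes. The 6 erythroid markers summed to 1802 and 38383 CPM over all barcodes and to 233 and 690 CPM under 1% haemoglobin. The 4 monocyte markers summed to 944 and 881 CPM, the 4 mesenchymal markers to 344 and 396 CPM, the 4 B lineage markers to 77.6 and 77.8 CPM, the 4 endothelial markers to 53.6 and 84.3 CPM, and the 4 T cell markers to 38.2 and 33.4 CPM. Of the eosinophil, mast cell and basophil markers, Prg2, Epx and Cpa3 were at 0 in WT, and the list summed to 1.2 CPM in WT and 10.0 in the mutant. Prox1 itself had 2 UMIs in the WT granule-rich barcodes and 0 in the mutant ones, of 563 and 315 over all kept barcodes, so it gives no check of genotype in these barcodes.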

How the data were processed

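The authors deposited, for each of the 2 libraries, raw UMI counts per gene and barcode with no normalization, made with Cell Ranger 7.0.1 on GRCm38 (mm10) per the labels and the study's methods, with lists of barcodes and of 32285 genes. Cell calling by Cell Ranger had been applied. Whether introns were counted and whether doublets were removed are not given in the sources used here, and the labels and the methods name different 10x kit versions and digestion enzymes. The libraries held 5709 barcodes and 53517206 UMIs (WT) and 7846 barcodes and 62446987 UMIs (mutant). The filter of 500 genes and 10% mitochondrial UMIs, taken from the study's methods, left 4352 and 5757.

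UMIs were summed over the barcodes of a kind in each library and scaled to counts per 1000000 UMIs. Genes with at least 100 UMIs over the groups compared were used, and a gene was called at a 2-fold difference, a rule of size, since 1 library per group allows no test. Intervals are Clopper-Pearson for shares, Newcombe for their differences, Poisson for CPM and exact conditional binomial for ratios, at 95%. A gene at 0 was set to 3 UMIs for a bound. Barcodes were kept whether or not Scrublet (scanpy 1.11.5, the highest scores, up to a share of 0.008 for each 1000 barcodes, 239 and 462 calls) marked them as doublets, with their removal as an alternative. The ratios between libraries and their intervals were checked on simulated Poisson counts, which do not hold the spread between barcodes. Python 3.11.15, numpy 2.4.6, scipy 1.17.1, pandas 2.3.3, statsmodels 0.14.6 and matplotlib 3.10.9 were used, gene positions are from GENCODE M21, and promoter sequences from RefSeq (GRCm38.p6).

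Genes named are those of the lists by function and marker lists, and for each comparison the 10 highest and 10 lowest log2 ratios, without genes of the rules, mitochondrial genes, Xist and Y-linked genes. The barcodes and the lists were chosen with earlier results of these data known, so their directions are no independent evidence. Alternatives changed the barcode filter, the granule limit, the scaling, the UMI minimum, the thinning, the limits of the neighbouring cell groups, doublets, haemoglobin-rich barcodes and the barcode with the most UMIs of a gene. Results of a few genes are not reported here.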

Additional observations from a re-analysis of the deposited data

Results flagged for a closer look

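The ratios of 5 genes pointed in opposite directions in the libraries, and in no case was the difference between the libraries tested. Over mature neutrophils, Flt1 had a log2 ratio of -1.84 in the mutant and 1.03 in WT, and Lum of -2.35 in the mutant and 1.51 in WT. Over progenitors, Serpinf1 had a log2 ratio of -2.33 in the mutant and 1.62 in WT, Skap1 of -1.27 in the mutant and 1.36 in WT, and Mir155hg of 2.51 in the mutant and -2.70 in WT. Each rested on 12 to 172 UMIs in the granule-rich barcodes of a library. Some counts on the other side of the ratio were smaller still. Skap1 in WT progenitors and Mir155hg in mutant progenitors were at or under the floor of 3 UMIs, and Serpinf1 in WT progenitors was close to it. These directions are therefore uncertain. Outside the comparisons, 50 mutant and 18 WT barcodes failed the filter on genes or mitochondrial UMIs but met the rest of the rule, with granule shares of 1.01% to 5.02% in the mutant and medians of 798 and 688.5 UMIs.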

How the results depend on the processing

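The difference in the share of granule-rich barcodes was 4.30 points, 2.04 with a granule limit of 2% and 7.14 with one of 0.5%. Genes higher in the mutant numbered 282, and 683 with doublets removed, 494 with at least 50 UMIs and 168 with at least 200. Genes lower in the mutant numbered 74, and 138 with at least 50 UMIs, 45 with at least 200, and 112 under 1% haemoglobin with scaling free of the rule, haemoglobin and mitochondrial genes, an alternative chosen after seeing the data. Genes higher than in mature neutrophils numbered 447, and 770 with doublets removed, 694 with that scaling and 1033 with S100a8 and S100a9 at 5% or more in mature neutrophils. Genes lower than in progenitors numbered 1232, and 770 with that scaling and 775 with at least 200 UMIs. The G2/M difference went from 7.68 to -7.21 points under 1% haemoglobin at 2000 UMIs, whereas at 4000 UMIs the shares under 1% haemoglobin were 49.3% in WT and 49.5% in the mutant. Among mutant to WT log2 ratios of named genes, these turned: Tpm2 to 1.51 and Mgp to 0.40 without the barcode holding most of their UMIs, Tpm2 to 2.33 under the stricter barcode filter of 1000 genes and 5% mitochondrial UMIs, and with doublets removed Lum to 2.03, Ptn to 1.29, Serpinf1 to 1.79, Tpm2 to 4.20 and Aspn to 2.51. Of 191 such ratios the scaling moved 0 beyond their intervals, leaving out haemoglobin-rich barcodes 61, and removing doublets 102. The cause of these shifts was not tested, apart from the UMI minimum, which sets how many genes are compared. No paired analysis was possible because there was 1 library per group. For the same reason no replicate could be left out.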
